A study of Mus musculus with 4 samples.

Results

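The 10 genes described here encode the natriuretic peptide receptors (Npr1, Npr2 and Npr3), the peptide precursors (Nppa, Nppb and Nppc), the peptide-processing protease Corin, the cGMP-dependent kinases (Prkg1 and Prkg2) and the soluble guanylyl cyclase subunit Gucy1a2. They were chosen by gene symbol, through the array's annotation, and all 10 of 10 had at least 1 probe set with that single symbol, giving 16 of the 45101 probe sets and 10 of 18193 genes. Total RNA from glomeruli of male mice had been hybridised to 1 Affymetrix mouse array per group, with 4 arrays in all. KO ALDO was the array of GC-A knockout mice given aldosterone under the skin and a 6% salt diet for 3 weeks, and WT ALDO was the same treatment in wild-type mice. KO control and WT control were the GC-A knockout and wild-type arrays with an infusion of 2% ethanol and normal chow. All animals had lost a kidney by surgery before treatment, so uninephrectomy was common to the 4 groups. The knockout is labelled systemic, that is, not limited to the glomeruli. The labels name no strain, age or deleted exons, and do not say whether an array held RNA of 1 mouse or of a pool.

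Natriuretic peptides lower blood pressure and blood volume. Atrial and B-type peptide, made mainly in the heart, bind GC-A (also called NPR-A), the product of Npr1, whose guanylyl cyclase domain makes cGMP. C-type peptide acts through GC-B, the product of Npr2, and all of the peptides are taken up and removed by the clearance receptor, the product of Npr3. The gas nitric oxide raises cGMP through a separate soluble cyclase, and cGMP from both sources activates the kinases encoded by Prkg1 and Prkg2. In the glomerulus, podocytes and mesangial cells are known targets of the peptides, which raise filtration.

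With 1 array per group there was no spread between animals and no test, so each difference below is between 2 arrays, the groups cannot be seen to overlap or not, and only sizes are given. Values are deposited intensities, which had a trimmed mean of 500.003 on every array. Differences are of log2(intensity + 16), a scale that understates changes of dim probe sets. Intensities of different probe sets cannot be compared as RNA levels, since probes differ in how well they bind. As markers of the glomerulus, 5 podocyte markers summed to 20639, 18984, 17871 and 18441 on KO ALDO, WT ALDO, KO control and WT control. Such sums show podocyte RNA and do not measure how pure the glomeruli were. Nphs1, which encodes nephrin of the podocyte slit diaphragm, ranged from 1675 to 1899. Tubule RNA was present as well, with the loop-of-Henle marker Umod between 27142 and 30615 and the proximal tubule marker Lrp2 between 10903 and 15141. Fewer cells of a type and less RNA per cell cannot be told apart in such samples. As a guide to dim signals, 15 genes of tissues not sampled (sperm, retina, pituitary, pancreas, oocyte, mammary gland and neurons) had intensities of 0.367 to 72.6, with medians of 29.1 on KO ALDO, 12.9 on WT ALDO, 13.6 on KO control and 25.2 on WT control.

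**Figure D1:**
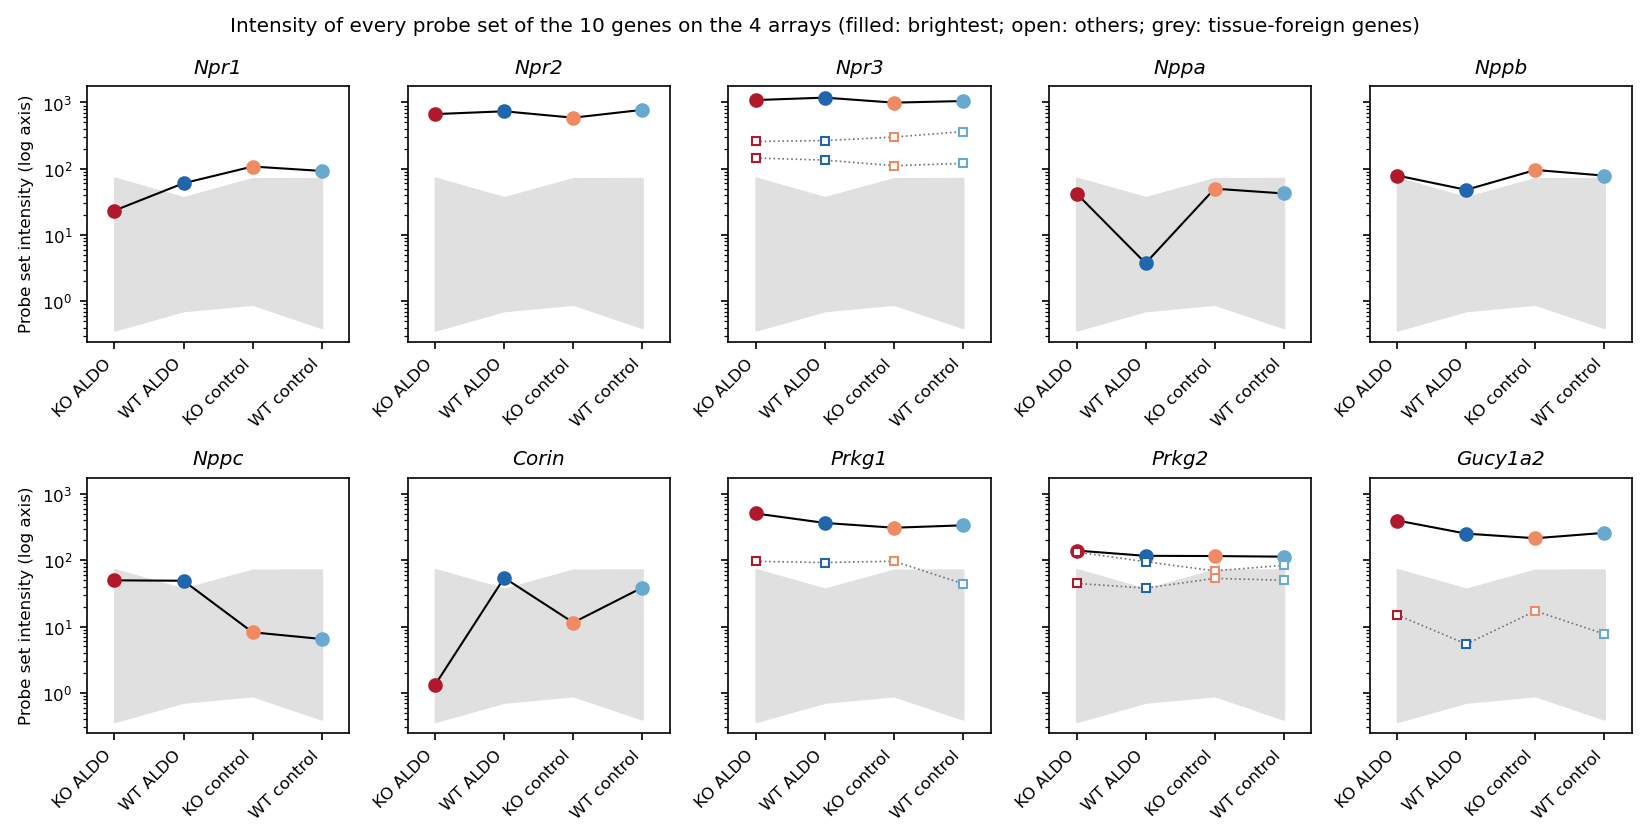
Deposited intensity (log axis) of all 16 probe sets of the 10 genes on the KO ALDO, WT ALDO, KO control and WT control arrays; filled circles are the brightest probe set of a gene, open squares the others, and the grey band is the range of 15 tissue-foreign genes on each array. Npr2, Npr3, Nppb, Prkg1, Prkg2 and Gucy1a2 had their brightest probe set above the band on all 4 arrays, Nppa lay inside it on all 4, and Corin and Nppc lay inside it on 3 of 4.

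Of the receptors, the clearance receptor varied least. Npr3 had an intensity of 1088 on KO ALDO, 1183 on WT ALDO, 994 on KO control and 1051 on WT control. Its highest and lowest arrays differed by 0.25 on the log2 scale, the narrowest range among the 10 genes. The other Npr3 probe sets did not repeat its order: the next brightest had 258, 266, 301 and 363 on KO ALDO, WT ALDO, KO control and WT control, and the dimmest had 145, 135, 111 and 121. The next brightest was thus lower under ALDO in both genotypes (differences of -0.21 in KO and -0.43 in WT), while the brightest (0.13 and 0.17) and the dimmest (0.34 and 0.15) were higher. No direction can be given for Npr3 under ALDO, because its probe sets disagree. Between genotypes the 3 probe sets lay between -0.12 and 0.09 under ALDO and between -0.26 and -0.08 under control treatment.

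Npr2 had an intensity of 668 on KO ALDO, 736 on WT ALDO, 589 on KO control and 774 on WT control. KO control stood lowest and WT control highest, so its genotype difference was -0.38 without aldosterone and -0.14 with it. Of the 9097 genes with the higher mean signal (the brighter 50%), 4.87% were as low as Npr2 or lower between KO control and WT control. Among all genes that share was 12.1%. ALDO minus control was 0.18 in KO and -0.07 in WT.

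Npr1, the gene the knockout targets, had an intensity of 23.4 on KO ALDO, 60.5 on WT ALDO, 108 on KO control and 92.6 on WT control. The lowest array was KO ALDO, but KO control was the highest, so the signal did not follow the genotype labels. Since the position of this probe set relative to the deleted part is unknown here, it checks nothing about the knockout. KO ALDO minus KO control was -1.65, and -0.98 with a pseudocount of 64. WT ALDO minus WT control was -0.51, so the array with aldosterone was the lower one in both genotypes. Only the KO ALDO value lay within the range of the tissue-foreign genes on its own array.

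The peptide precursors all lay in the dimmer 50% of genes. Nppa had an intensity of 42.2 on KO ALDO, 3.76 on WT ALDO, 50.1 on KO control and 42.4 on WT control. A single array, WT ALDO, stood apart, and it entered every Nppa difference past 2-fold: 1.56 for KO ALDO minus WT ALDO, -1.56 for WT ALDO minus WT control and 1.38 for the difference between the ALDO effects in KO and WT. The tissue-foreign genes moved in the same directions in these pairs, with 11 of 15 above 0 and a median of 0.81 between KO ALDO and WT ALDO, and 12 of 15 below 0 and a median of -0.41 between WT ALDO and WT control. Their part in the Nppa values was not tested. Nppb had 79.0 on KO ALDO, 48.1 on WT ALDO, 95.8 on KO control and 78.8 on WT control, above the tissue-foreign genes on all 4 arrays. WT ALDO was again the lowest array, with KO ALDO minus WT ALDO at 0.57 and WT ALDO minus WT control at -0.56, and Nppb was slightly higher in KO control than in WT control (0.24).

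Nppc, the precursor of C-type peptide, which vascular endothelium is known to release, was higher with ALDO by a similar amount in both genotypes. Its intensity was 49.8 on KO ALDO and 49.1 on WT ALDO, against 8.19 on KO control and 6.49 on WT control. The ALDO arrays were the high ones and the genotypes were alike within each treatment (0.02 under ALDO and 0.11 under control). On the log2(intensity + 16) scale, ALDO minus control was 1.44 in KO and 1.53 in WT. These sizes rest on control values inside the range of the tissue-foreign genes: they were 2.47 and 2.74 with a pseudocount of 1, and 0.66 and 0.68 with 64. The tissue-foreign genes reached up to 1.49 in KO and 1.31 in WT, so the KO value lay inside their range and the WT value outside it. Nppc had 1 probe set, which was brighter than every tissue-foreign gene on WT ALDO alone.

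Corin, the serine protease that cuts the atrial peptide precursor in the heart, had an intensity of 1.32 on KO ALDO, 54.3 on WT ALDO, 11.5 on KO control and 38.7 on WT control. Both KO arrays were lower than both WT arrays. KO ALDO minus WT ALDO was -2.02, and KO control minus WT control was -0.99, just short of 2-fold. WT ALDO was the 1 array on which Corin was above all tissue-foreign genes, so both KO values and the WT control value were within their range. The tissue-foreign genes ranged from -0.84 to 1.46 in the pair of ALDO arrays and from -1.64 to 0.96 in the control pair, so the value under ALDO lay outside their range and the control value inside it. Aldosterone and salt went with a higher value in WT (0.36) and a lower one in KO (-0.67). The intensity of 1.32 is near the bottom of the array, where 0.965% of all probe sets were dimmer, so the size of the difference rests on the pseudocount (-4.57 with a pseudocount of 1 and -0.86 with 64).

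Gucy1a2 encodes a subunit of the soluble cyclase that responds to nitric oxide, and Prkg1 a kinase that cGMP activates. Both genes were highest on KO ALDO in their brightest probe sets. Gucy1a2, an alpha subunit of soluble guanylyl cyclase, had an intensity of 398 on KO ALDO, 252 on WT ALDO, 215 on KO control and 259 on WT control. KO ALDO stood above 3 arrays that lay close to each other. ALDO minus control was 0.84 in KO and -0.04 in WT, a difference of effects of 0.88. Gucy1a2 lay in the brighter 50% of genes through KO ALDO alone, since its mean log2 value was 8.18 over all arrays and 8.01 over the other 3, beside a dividing value of 8.04. Read against all genes, 5.58% were as high as Gucy1a2 between KO ALDO and KO control and 7.32% for the difference of effects, and in the dimmer 50% these shares were 10.1% and 13.8%. KO minus WT was 0.63 under ALDO and -0.25 under control treatment. Its other probe set, with 15.0 on KO ALDO, 5.43 on WT ALDO, 17.2 on KO control and 7.70 on WT control, lay within the range of the tissue-foreign genes on all 4 arrays and did not repeat the pattern (ALDO minus control of -0.10 in KO and -0.15 in WT). With the mean of both probe sets, ALDO minus control in KO was 0.37 and KO control minus WT control was 0.12.

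Prkg1, which encodes the cGMP-dependent kinase of smooth muscle and mesangial cells, had an intensity of 507 on KO ALDO, 365 on WT ALDO, 309.6 on KO control and 336 on WT control. KO ALDO was the highest array here too, with ALDO minus control at 0.69 in KO and 0.11 in WT and KO minus WT at 0.46 under ALDO and -0.11 under control. Of the brighter 50% of genes, in which Prkg1 lay on each array, 2.09% were as high between KO ALDO and KO control, and of all genes 8.09%. The second Prkg1 probe set gave another picture, with 96.3 on KO ALDO, 92.4 on WT ALDO, 96.8 on KO control and 44.3 on WT control. In it WT control was the low array and the other 3 were alike, so its difference of effects was -0.85, against 0.57 in the brightest. The probe sets disagree on which array stands apart, and the pattern of Prkg1 is therefore uncertain. Prkg2, the membrane-bound kinase known from intestine, kidney and bone, had 140.0 on KO ALDO, 117 on WT ALDO, 116 on KO control and 113 on WT control. Its array-to-array range was 0.27. Its second probe set had 133, 95.2, 69.2 and 83.8 in the same order of arrays, highest on KO ALDO, and its dimmest, with 44.8, 38.0, 53.2 and 49.97, was not.

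The 250 bases before the transcript starts of Gucy1a2 and Prkg1 are given because their brightest probe sets were highest on the same array. They come from RefSeq (GRCm38.p6), where 9 of the 10 genes matched by symbol, Prkg2 being the exception, and Prkg1 had 2 starts. Capitals mark matches, on either strand, to the GC box (GGGCGG), the corticosteroid receptor half-site (AGAACA), the TATA box (TATAAA), the E box (CACGTG) and the cAMP response half-site (TGACG).
Gucy1a2, chr9:3532099-3532348, plus strand: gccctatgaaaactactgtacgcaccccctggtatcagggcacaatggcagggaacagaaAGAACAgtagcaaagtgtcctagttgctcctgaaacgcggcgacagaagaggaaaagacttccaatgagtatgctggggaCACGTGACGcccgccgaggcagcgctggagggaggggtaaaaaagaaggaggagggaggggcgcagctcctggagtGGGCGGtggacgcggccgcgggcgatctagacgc
Prkg1, first start, chr19:31765034-31765283, minus strand: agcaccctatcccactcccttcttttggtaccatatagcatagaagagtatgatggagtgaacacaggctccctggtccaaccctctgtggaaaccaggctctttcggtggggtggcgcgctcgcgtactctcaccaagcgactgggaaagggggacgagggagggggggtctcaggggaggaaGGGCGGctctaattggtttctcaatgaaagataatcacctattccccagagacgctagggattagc
Prkg1, second start, chr19:31664371-31664620, minus strand: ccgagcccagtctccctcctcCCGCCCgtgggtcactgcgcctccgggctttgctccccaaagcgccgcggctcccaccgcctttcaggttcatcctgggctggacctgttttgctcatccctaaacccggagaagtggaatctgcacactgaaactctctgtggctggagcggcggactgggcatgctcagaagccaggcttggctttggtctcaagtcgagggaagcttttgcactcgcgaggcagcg
The letters GGGCGG, read on either strand, were found in all 3 windows, as in 32.7% of the 32851 windows of this length in the table. The Gucy1a2 window also held AGAACA, found in 16.1% of windows, and CACGTG (6.02%) overlapping TGACG (17.8%). Neither Prkg1 window held any of these, and TATAAA (12.4%) was in none of the 3. Nppc (49.8 on KO ALDO and 49.1 on WT ALDO) and Prkg2 were also highest on KO ALDO. The Nppc window, not printed here, held both GGGCGG and TATAAA. The Npr1 window, also not printed, held GGGCGG on the other strand, while Npr1 was lowest on KO ALDO (23.4). A match is a description of letters and not of a bound site.

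Cell type marker sums were set beside the brightest probe sets of Gucy1a2 and Prkg1. The 6 smooth muscle and pericyte markers, with all 6 of 6 listed measured, summed to 19965 on KO ALDO, 12966 on WT ALDO, 10245 on KO control and 7987 on WT control. The 6 mesangial markers summed to 12081, 8871, 9649 and 7680 in that order of arrays, and the 8 endothelial markers to 23291, 16670.0, 19519 and 14896. KO ALDO was the highest array for each of these sums, as for Gucy1a2 and Prkg1, while the 6 proximal tubule markers were lowest there (73850, against 94541 on WT control). The 4 fibroblast markers summed to 4788 on KO ALDO, 2510 on WT ALDO, 3177 on KO control and 1766 on WT control, and the 6 macrophage markers to 8072, 3884, 6864 and 3748, so the macrophage sum was high on both KO arrays. Relative to WT control, the smooth muscle and pericyte sum was 2.50 times as high on KO ALDO, the mesangial sum 1.57, Gucy1a2 1.53 and Prkg1 1.51 times. On KO control these sums were above WT control (1.28 and 1.26 times). The brightest probe sets of Gucy1a2 and Prkg1 were below WT control there (0.829 and 0.920 times). Their other probe sets went the other way, with 17.2 on KO control and 7.70 on WT control for Gucy1a2, and 96.8 and 44.3 for Prkg1. On WT ALDO the smooth muscle and pericyte sum was 1.62 and the mesangial sum 1.16 times WT control, beside 0.972 for Gucy1a2 and 1.09 for Prkg1. The smooth muscle and pericyte sum was carried largely by Rgs5 (9159 on KO ALDO) and Acta2 (6797 on KO ALDO). Of its 6 markers, 5 were higher on KO ALDO than on WT ALDO, and Myh11 was not (510 and 552). The mesangial sum was carried largely by Pdgfrb (5391 on KO ALDO and 3323 on KO control). Ptn had 1390.2 on KO ALDO and 1461 on KO control, and Art3 447 and 612, so not all of these markers were higher with ALDO in KO. The part of cell makeup in the values of Gucy1a2 and Prkg1 was not tested.

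**Figure D2:**
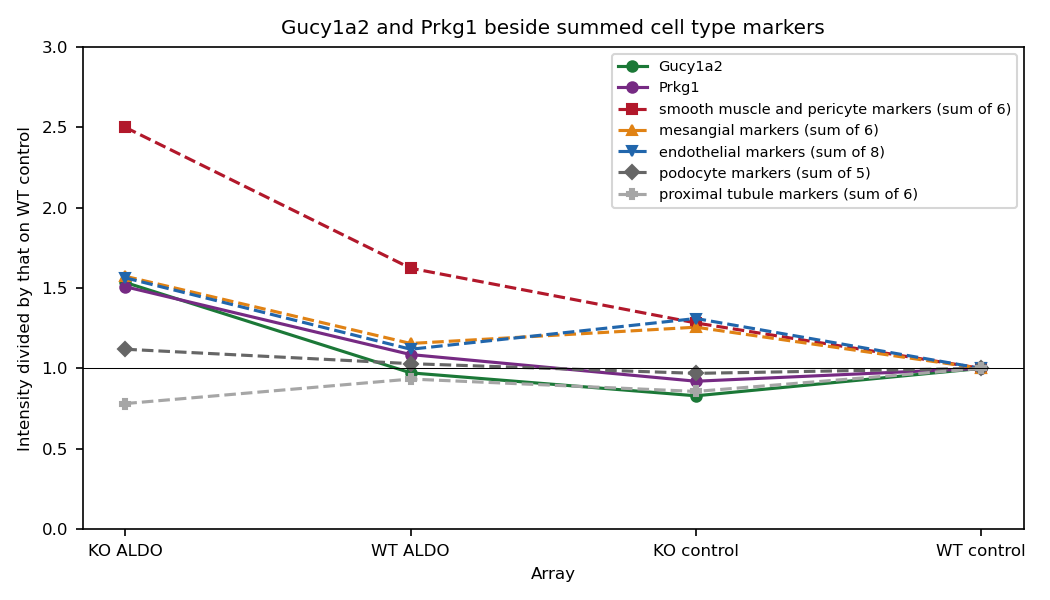
Intensity on each array divided by that on WT control, for the brightest probe sets of Gucy1a2 and Prkg1 (solid lines) and for the summed intensities of cell type markers (dashed lines). On KO ALDO, Gucy1a2 was at 1.53, Prkg1 at 1.51 and the mesangial sum, largely Pdgfrb, at 1.57, and on KO control they lay below 1 while the mesangial sum was 1.26.

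Counted over the members, few differences passed 2-fold, and those that did were of dim genes. Between KO control and WT control, 0 of 10 members were past 2-fold, against 6.9% of all genes, 1.14% of the brighter 50% and 12.7% of the dimmer 50%. Between KO ALDO and WT ALDO, 2 of 10 were (Nppa higher, Corin lower), against 7.06% of all genes, 1.62% of the brighter and 12.5% of the dimmer ones. Between WT ALDO and WT control, 2 of 10 were (Nppc higher, Nppa lower), against 5.99%, 0.682% and 11.3%. Between KO ALDO and KO control, 2 of 10 were (Nppc higher, Npr1 lower), against 6.13%, 0.704% and 11.6%. For the difference between the ALDO effects in KO and in WT, 3 of 10 were (Nppa higher, Npr1 and Corin lower), against 11%, 0.923% and 21.1%. All of these belonged to the 6 dim members, so the dimmer 50% is the background to read them against. With a pseudocount of 64 none of the 10 was past 2-fold in any comparison. For Nppa, Nppc and Corin this was fixed in advance in pairs of arrays. Their intensities were all below 64, and such values cannot differ 2-fold once 64 is added. None of the 4 members among the brighter 50% (Npr2, Npr3, Prkg1 and Gucy1a2) was past 2-fold in any comparison.

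The median over the 10 members was -0.03 for KO control minus WT control and 0.13 for KO ALDO minus WT ALDO, beside medians over all genes of 0.02 and 0.04. It was -0.00047 for WT ALDO minus WT control and 0.15 for KO ALDO minus KO control, beside 0.01 and 0.03. Members above 0 numbered 5, 6, 5 and 6 of 10 in these 4 comparisons. The genotype difference had the same sign under ALDO and control in 7 of 10 members, against 62% of all genes, 68.6% of the brighter 50% and 55.5% of the dimmer 50%. The ALDO difference had the same sign in both genotypes in 7 of 10, against 57.2%, 62.2% and 52.2%.

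**Figure D3:**
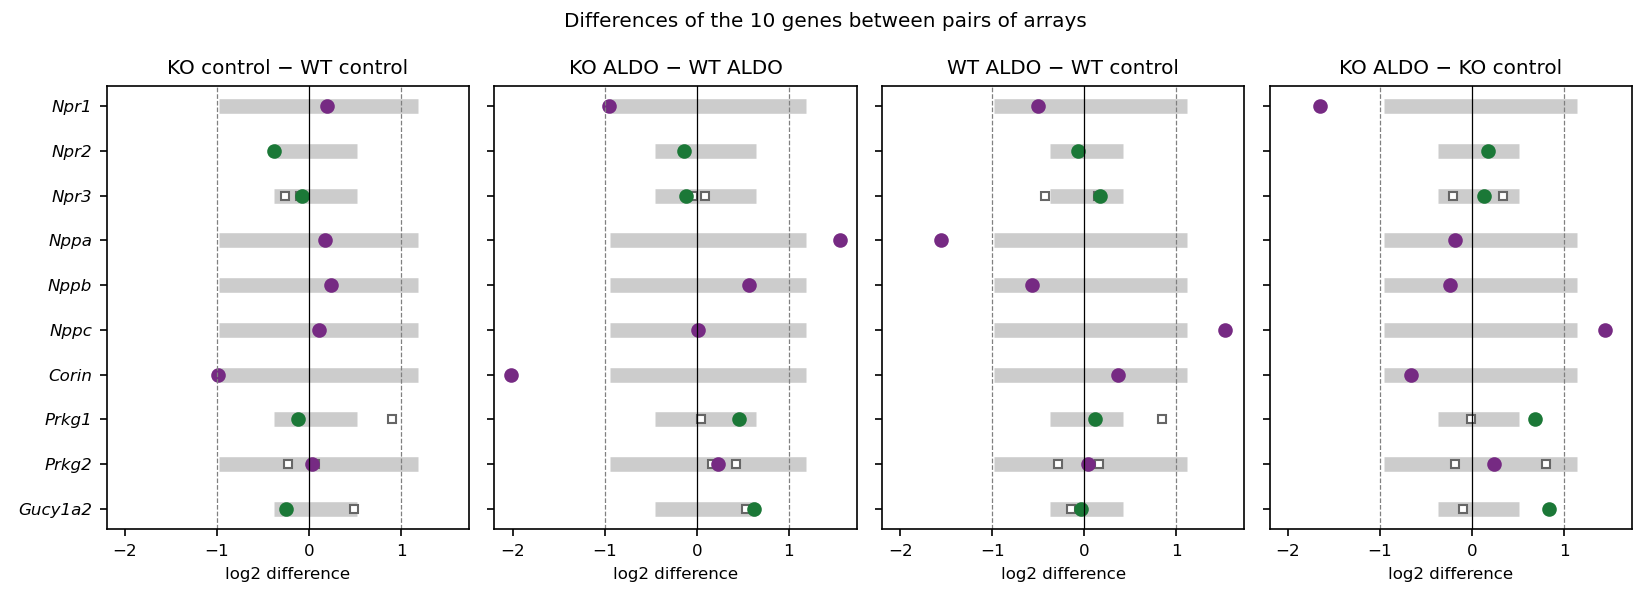
Difference of log2(intensity + 16) for each gene in 4 pairs of arrays; circles are the brightest probe set (green for genes of the brighter 50%, purple for the dimmer 50%), squares the other probe sets, dashed lines 2-fold, and grey bars the 5th to 95th percentile of all genes of the same brightness class. Prkg1 (0.69) lay to the right of its bar for KO ALDO minus KO control, Gucy1a2 (0.84) did so too but would lie inside the bar of the dimmer 50% (up to 1.14), and Corin (-2.02) to the left of its bar for KO ALDO minus WT ALDO.

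Beyond the members, a list of 44 other genes of the cGMP pathway was read, of which 38 were measured and 23 lay among the brighter 50%. Between KO ALDO and KO control, 1 of 38 was past 2-fold, against 6.13% of all genes and 0.704% of the brighter 50%. That gene was Pcsk6, a proprotein convertase known to activate corin, with an intensity of 888 on KO ALDO and 793 on WT ALDO, against 351 on KO control and 423 on WT control. Both ALDO arrays were high, with ALDO minus control at 1.30 in KO and 0.88 in WT, from 1 probe set. Abcc4, an exporter of cyclic nucleotides, followed with 0.82 in KO and 0.62 in WT, also from 1 probe set. Gucy1a1 and Gucy1b1, the other subunits of soluble guanylyl cyclase, were higher under ALDO in both genotypes, at 0.60 and 0.35 in KO and 0.70 and 0.58 in WT. The second Gucy1a1 probe set gave 0.43 in KO and 0.77 in WT, while the second, dim Gucy1b1 probe set gave 0.76 and -0.11. Gucy1a1 had 1571 on KO ALDO and 1671 on WT ALDO, against 1029.7 on KO control and 1021 on WT control. In this it was unlike the brightest Gucy1a2 probe set, which was high on KO ALDO alone. Ece1, an endothelin-converting enzyme that also degrades peptides, was higher under ALDO in KO (0.73) with 0.04 in WT.

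Among the lowest genes under ALDO in both genotypes was Pde9a, a phosphodiesterase that breaks down cGMP with high affinity, at -0.45 in KO and -0.36 in WT. Guca2b, the precursor of uroguanylin, had -0.26 in KO and -0.53 in WT. Abcc5, another exporter, had -0.33 in KO and 0.12 in WT in its brightest of 10 probe sets, but the next brightest gave -0.56 and -0.87, so the value of Abcc5 depends on the probe set. Pde6d, which encodes a carrier of prenylated proteins, had -0.14 in WT. The signs of the ALDO difference matched between KO and WT in 21 of these 23 genes (91.3%), against 62.2% of the brighter 50% of genes. In each genotype, 6 of 6 smooth muscle and pericyte markers, 7 of 8 endothelial and 4 of 6 mesangial markers were higher with ALDO. The part of cell makeup in these matches was not tested. The list's median was 0.14 in KO and 0.19 in WT, beside 0.01 and 0.01 for the brighter 50%.

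Between genotypes none of these 23 was past 2-fold. The highest were Rgs2, a regulator of G-protein signalling that the kinase activates, at 0.52 under ALDO and 0.52 under control, Pde5a, the phosphodiesterase blocked by sildenafil, at 0.50 and 0.50, and Pde2a, a phosphodiesterase stimulated by cGMP, at 0.51 and 0.37. The second probe set of Rgs2 gave 0.47 and 0.52 and that of Pde2a 0.55 and 0.62, but that of Pde5a gave 0.53 under ALDO and 0.06 under control. Over its 3 probe sets Pde5a had a mean of 0.12 under ALDO and 0.11 under control, so its value depends on the probe set. Rgs2 had 1196 on KO ALDO and 828 on WT ALDO, and 1082 on KO control and 747 on WT control, so each KO array was above its WT counterpart. The lowest under ALDO were Furin, a proprotein convertase (-0.43), Abcc5 (-0.38) and Pde9a (-0.31), and under control Ece1 (-0.41), Pcsk6 (-0.26) and Abcc4 (-0.23). The next brightest Abcc5 probe set gave -0.0039 under ALDO. The list's median was 0.14 under ALDO and 0.06 under control, and 18 of 23 (78.3%) had the same sign under both, against 68.6%. Endothelial, mesangial and smooth muscle sums were also above WT in both KO arrays, as given above, and their part was not tested. Of the 15 dim genes of the list, Guca2a, the guanylin precursor (1.20), and the phosphodiesterase gene Pde11a (1.85) were past 2-fold between KO control and WT control and Kcnma1, a potassium channel gene (1.57), between KO ALDO and WT ALDO. Between WT ALDO and WT control, Pde11a (1.37), Kcnma1 (-1.39) and Gucy2g (-1.23) were. The dimmer 50% passed 2-fold in 12.7%, 12.5% and 11.3% of genes in these comparisons. For the difference of effects, 4 of the 38 were past 2-fold, all among the 15 dim genes and against 21.1% of the dimmer 50%: Kcnma1 (1.66), Gucy2g (1.43), Gucy2c (-1.35) and Pde11a (-2.00). The next brightest Kcnma1 probe set gave 0.17 between KO ALDO and WT ALDO and -0.27 for the difference of effects, and that of Pde11a gave 0.13 between KO control and WT control, so the probe sets of both genes disagree. Among the brighter 50% that difference was largest for Ece1 (0.69), Pcsk6 (0.42) and Guca2b (0.27) and lowest for Abcc5 (-0.45), Furin (-0.37) and Gucy1b1 (-0.23). The next brightest probe set gave 0.51 for Ece1, but 0.31 for Abcc5 and 0.86 for Gucy1b1. The sign of Abcc5 and Gucy1b1 thus depends on the probe set.

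**Figure D4:**
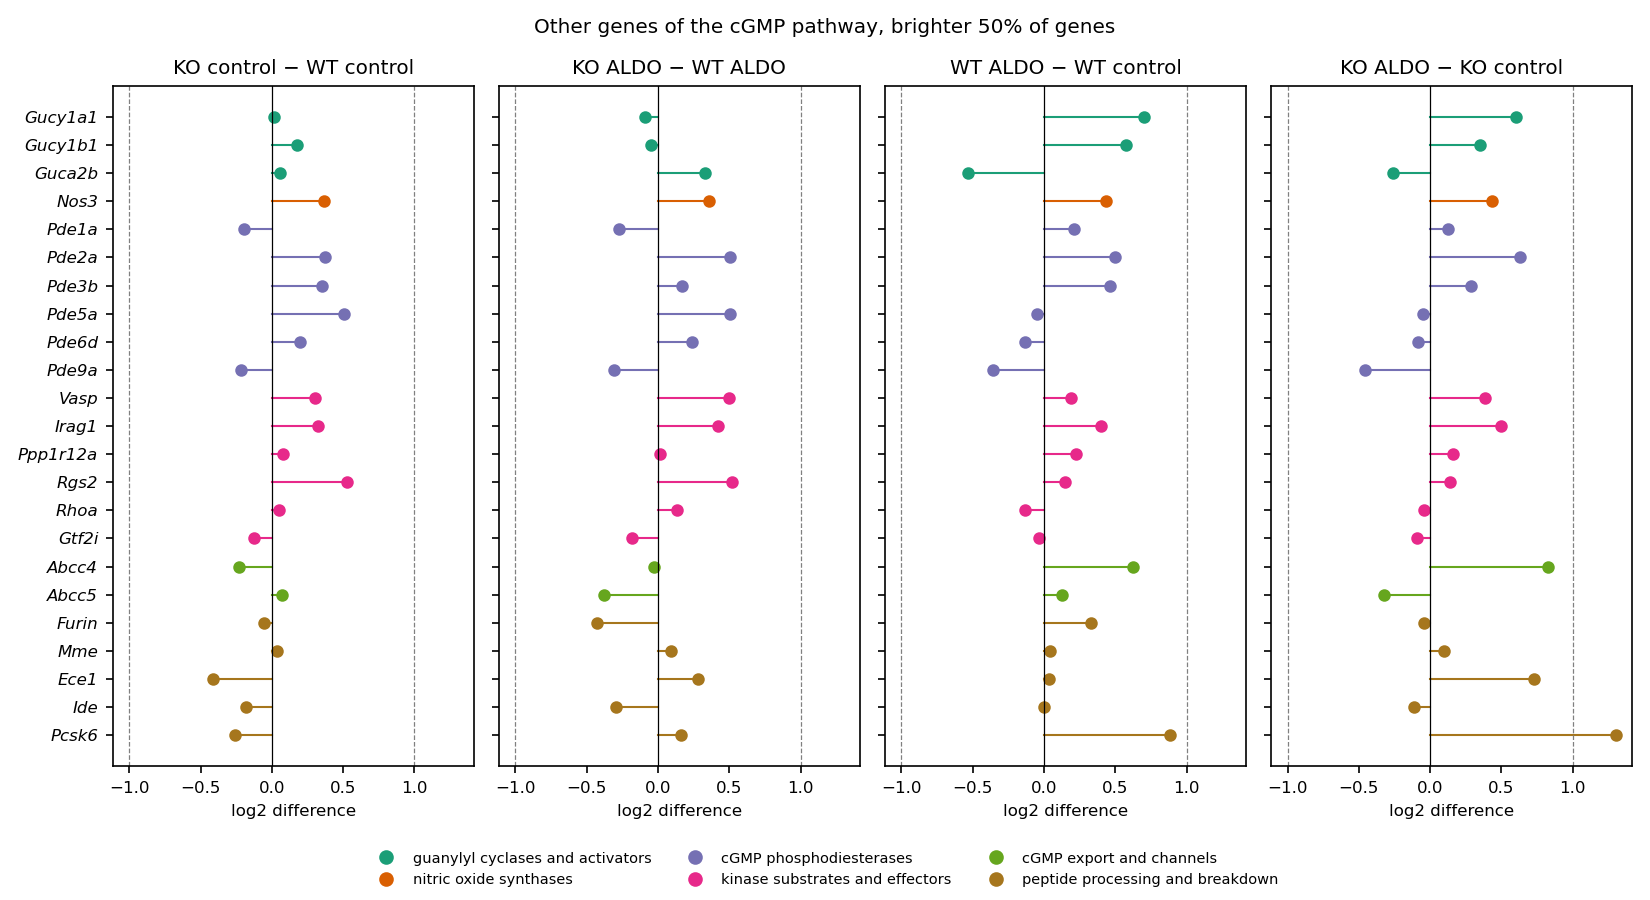
Difference of log2(intensity + 16) in 4 pairs of arrays for the 23 other cGMP pathway genes among the brighter 50%, coloured by role; dashed lines mark 2-fold. Pcsk6 (1.30) is the 1 gene past 2-fold, for KO ALDO minus KO control. In their brightest probe sets, Rgs2 and Pde5a have nearly equal genotype differences under ALDO (0.52 and 0.50) and control (0.52 and 0.50). The mean over the 3 Pde5a probe sets was 0.12 under ALDO and 0.11 under control.

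The genes whose 4 log2 values were most like those of a bright member, after each gene's own mean was taken off, were found by Euclidean distance among 8923 genes. For Gucy1a2 they were Ggt5, a gamma-glutamyltransferase family gene (distance 0.06), and Kng1, the kininogen gene (0.08). Gucy1a2 was a bright member through KO ALDO alone, and its other probe set did not repeat this pattern. Ggt5 had 546 on KO ALDO, 337 on WT ALDO, 301 on KO control and 369.8 on WT control, and 20 genes in all lay within a distance of 0.2. For Prkg1 they were Nid2, a basement membrane nidogen (0.06), and Knop1 (0.07), with 90 genes within 0.2. For Npr2 they were Tasp1 (0.02) and Phc1 (0.03), and for Npr3 Sec22a (0.02) and Ryk (0.03). The last pairs say little, since 712 and 1870 genes lay within 0.2 of these nearly flat patterns. With 4 arrays, a likeness of this kind describes these arrays only.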

How the data were processed

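Intensities of 45101 probe sets on 4 arrays were deposited by the authors on a linear scale, 1 column per array. Per the labels' protocols, biotin-labelled RNA was made with a 3' kit. Affymetrix Expression Console is the tool listed in the submitters' processing notes, without algorithm or version. Every array had a trimmed mean (2% left out at both ends) of 500.003, a common scaling that would hide a change of all RNA. Values were transformed as log2(intensity + 16). Of 34958 probe sets with a single symbol, 13 were Affymetrix controls and were left out, and Entrez identifiers of 99.4% of the rest were in the RefSeq table. The probe set with the highest mean log2 value stood for its gene, and genes were split at the middle of that mean (8.04, an intensity of 247). Groups came from sample titles. With 1 array per group no test was made, and the number of arrays limits precision. The 18 spike-in probe sets differed by medians of -0.27 (WT ALDO minus WT control) to 0.08 (KO ALDO minus WT ALDO). The 3'/5' ratio ranged from 1.61 to 1.87 for beta-actin and from 0.741 to 0.785 for Gapdh.

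Members and lists were chosen with earlier results of these data known. Named were all members with every probe set, the 3 highest and 3 lowest bright genes of the pathway list in each comparison with any gene past 2-fold, and the 2 genes most like each bright member. Ren1 and 3 podocyte markers were not analysed here. Steps were tested on simulated data. Alternatives were pseudocounts of 1 and 64, quantile normalization, median centring, the mean of all probe sets, and other signal filters (Python 3.11.15, pandas 2.3.3, numpy 2.4.6, matplotlib 3.10.9).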

Additional observations from a re-analysis of the deposited data

Results flagged for a closer look

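With 1 array per group, opposite signs of an effect in KO and WT, or under ALDO and control, were picked out at any size, and none of these differences was tested. Gucy1a2 had an ALDO difference of 0.84 in KO and -0.038 in WT, and a genotype difference of 0.63 under ALDO and -0.25 under control. With the mean of its probe sets the last value was 0.12, so the genotype differences were then both above 0. The genotype difference of Prkg1 was 0.46 under ALDO and -0.11 under control, and 0.25 and 0.39 with the mean of its probe sets. That of Npr1 was -0.96 under ALDO and 0.19 under control. The ALDO difference of Corin was -0.67 in KO and 0.36 in WT. That of Npr2 was 0.18 in KO and -0.071 in WT.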

How the results depend on the processing

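Alternatives were compared with the reported values, taking a value as held if it moved by under 1.5-fold and kept its side of 2-fold, and a count or share if it stayed within 1.5 times. Of 250 values of single members under 5 alternatives, 226 held and 24 moved, and none past 2-fold changed sign; 19 of the 24 came from the pseudocounts. Members past 2-fold between KO control and WT control numbered 1 (Corin) with a pseudocount of 1, quantile normalization or median centring, against 0. The same alternatives put Npr1 past 2-fold between KO ALDO and WT ALDO (-1.33, -1.10 and -1.10, against -0.96), where the count was 3, against 2. With a pseudocount of 64 the counts were 0 in the other 4 comparisons. For Nppa, Nppc and Corin, with all intensities below 64, this was fixed in advance in pairs of arrays. The share of genes past 2-fold without a signal filter was 6.90%, 7.06%, 5.99%, 6.13% and 11% (KO minus WT under control and ALDO, ALDO minus control in WT and KO, difference of effects), and in the dimmer 50% it was 12.7%, 12.5%, 11.3%, 11.6% and 21.1%. In the brightest 25% it was 0.725%, 0.396% and 0.462% for KO minus WT under control, ALDO minus control in WT and the difference of effects. The mean of all probe sets turned the difference of effects of Prkg1 to -0.14, against 0.57 in its brightest probe set, and its KO control minus WT control to 0.39, against -0.11. It turned KO control minus WT control of Gucy1a2 to 0.12, against -0.25. Quantile normalization and median centring both gave a members' median of -0.02 for KO ALDO minus WT ALDO, against 0.13, and the mean of all probe sets gave 0.11 for KO control minus WT control, against -0.03, so these medians have no settled sign. Median centring moved the median of the brighter 50% of genes to -0.13 for KO ALDO minus WT ALDO and -0.11 for KO control minus WT control, and differences are best read relative to that shift. No paired analysis was possible because each group had 1 array. The weak signal of Npr1, Nppa, Nppb, Nppc, Corin and Prkg2 limits what their values can show.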
